A study of Bos taurus with 54 samples.

Results

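The receptor chains through which cells sense interferons and interleukin-10 are 6 genes (IFNAR1, IFNAR2, IFNGR1, IFNGR2, IL10RA and IL10RB) of the 32637 genes counted in bovine whole blood. They were chosen by gene symbol because earlier results of these data, the comparison of heat stress with control in each library kit, already showed them to be higher after heat. The heat values of the chains are therefore given as a description. Where calls of the chains on that contrast are listed, they stand beside the share of all genes called and nothing is read from them.

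Each receptor of this family joins chains that bind the cytokine and chains that complete the signal. IFNAR1 and IFNAR2 form the receptor for type I interferons, IFNGR1 and IFNGR2 form the receptor for interferon gamma, and IL10RA and IL10RB form the receptor for interleukin-10, a cytokine that restrains inflammation. IL10RB is also the shared chain of the receptors for type III interferons, interleukin-22 and interleukin-26. The chains carry no kinase of their own and rely on the Janus kinases JAK1, JAK2 and TYK2, which activate STAT transcription factors.

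Blood came from 15 Holstein male calves, whose ages the labels do not give, with no genotype or drug as a factor. A calf was sampled in the morning under thermoneutral conditions (control) and again in the evening straight after 12 h of heat in a climate room (heat stress), so time of day and heat cannot be told apart. Red cells were lysed and the RNA of the pelleted cells was made into 3′ mRNA-Seq libraries with a Takara kit (SMART-Seq v4 3′ DE) and a Lexogen kit (QuantSeq 3′), each of which reads the end of the transcript next to the poly-A tail. The 54 libraries, 27 per kit, came from 29 RNA samples. Animal 20 was left out because its label says heat stress while the sampling text counts 15 samples before heat and 14 after it. Each kit then had 13 control and 13 heat stress libraries, and 12 animals gave a pair in each. The paired animals were not all the same. Animals 7 and 15 gave a pair in Takara alone, and animals 23 and 29 in Lexogen alone.

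Counts on genes per library were between 5140595 and 20699030 for Takara and between 4516761 and 58521751 for Lexogen. The Lexogen library of animal 15 after heat had the most, and no other Lexogen library had more than 15607291. The sample numbers in the library names form 2 separate runs of different animals, a low one (run 1, 8 animals) and a high one (run 2, 7 animals). What the runs stand for is not given in the labels, and values within each are shown where a result was compared between them. Markers of neutrophils, T cells, B cells and monocytes were counted in both kits, while HBA1, a haemoglobin gene, was at 0 in both kits and HBA in Lexogen. In such mixed blood, fewer cells of a type and less RNA per cell cannot be told apart. Levels are CPM, the counts of a gene scaled to a fixed total on genes, and are compared between libraries, not between genes.

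Of the chains, 4 lie in one cluster on chromosome 1 of the ARS-UCD2.0 assembly, which spans 251910 bases. In order these are IFNGR2 (chr1:2098171-2129613), IFNAR1 (chr1:2187824-2218344), IL10RB (chr1:2257124-2314086) and IFNAR2 (chr1:2315591-2350080). IFNGR1 lies on chromosome 9 (chr9:75081984-75106375), 693 bases from IL22RA2, the gene of a soluble interleukin-22 binding protein that belongs to the same receptor family. IL10RA lies on chromosome 15 (chr15:28659617-28673033), where 4264 of its bases overlap SMIM35 (chr15:28668770-28777010), a gene for a small membrane protein.

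That overlap decided whether IL10RA could be measured. The deposited tables count each read without regard to strand (unstranded), on the strand of the gene (sense) and on the other strand. Over the 26 Takara libraries of the time comparison, IL10RA had 216 unstranded counts but 41215 sense counts, so the unstranded column held 0.524% of the sense counts. The 26 Lexogen libraries had 48 unstranded counts of IL10RA against 16221 sense counts, and 18 of them had an unstranded count of 0. A reading from the unstranded column alone would have listed the interleukin-10 binding chain as almost silent in blood. SMIM35 leaned to the opposite strand, with 419 sense and 66814 opposite-strand counts in Takara and 129 sense and 44041 opposite-strand counts in Lexogen. The opposite-strand counts exceed the sense counts of IL10RA in each kit, so the overlap does not account for all of them. SMIM35 also kept 26152 unstranded counts in Takara and 27997 in Lexogen. The origin of the others was not tested. The other 5 chains kept between 98.6% and 104% of their sense counts in the unstranded column. IL10RA is therefore given below from sense counts, scaled to the total of sense counts, and the other chains from unstranded counts.

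**Figure D1:**
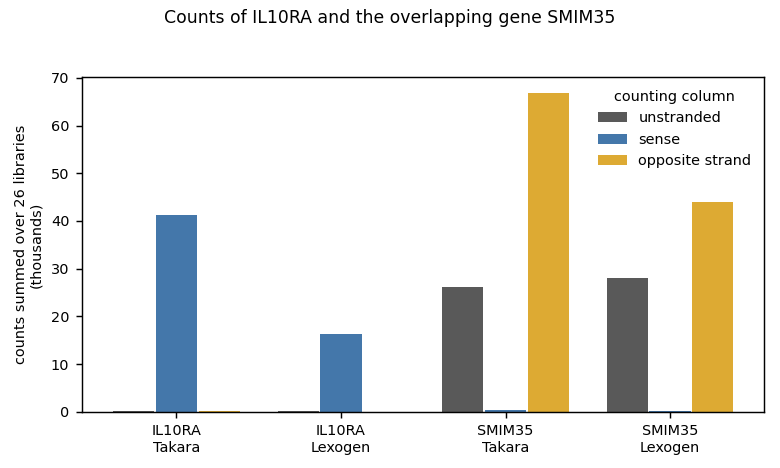
Counts of IL10RA and of the overlapping gene SMIM35 (vertical axis), summed over the 26 libraries of each kit in the time comparison; bars are the unstranded, sense and opposite-strand columns. The unstranded bars of IL10RA (216 and 48 counts) are too low to see beside its sense bars (41215 and 16221), and SMIM35 has nearly all of its stranded counts on the opposite strand.

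All 6 chains had higher median levels after heat than in control in both kits. By the fit of time alone in edgeR with TMM scaling, the log2 fold changes in Takara were 1.37 ± 0.30 (SE, n = 13 and 13) for IFNAR2, 1.16 ± 0.27 for IFNGR1, 1.14 ± 0.26 for IFNAR1, 0.92 ± 0.32 for IFNGR2, 0.52 ± 0.15 for IL10RB and 0.48 ± 0.17 for IL10RA. In Lexogen they were 1.03 ± 0.28 for IFNAR1, 1.00 ± 0.26 for IFNAR2, 0.80 ± 0.27 for IFNGR2, 0.56 ± 0.27 for IFNGR1, 0.54 ± 0.19 for IL10RB and 0.23 ± 0.21 for IL10RA. The interferon chains thus had larger values than the chains of the interleukin-10 receptor in Takara, with less separation in Lexogen. The ranges of control and heat stress libraries overlapped for each chain in each kit.

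Because these values chose the chains, the number past an adjusted p of 0.05 is listed only beside its background. In Takara, 5 of the 5 chains tested on unstranded counts were called higher, where 18.4% of the 12620 genes tested were called higher and 10.5% lower. On sense counts 6 of 6 were called higher, where 18.3% of all genes were. In Lexogen, 2 of 5 were called higher (IFNAR1 and IFNAR2), where 5.09% of the 11108 genes tested were called higher and 0.459% lower. On Lexogen sense counts it was 2 of 6, against 5.2% of all genes.

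IFNAR1, the chain of the type I interferon receptor that is bound by TYK2, ranged in Takara from 101 to 297 CPM in control libraries (median 208) and from 173 to 698 CPM after heat (median 257). In Lexogen it ranged from 64.2 to 178 CPM in control (median 127) and from 96.3 to 618 CPM after heat (median 149). The upper end moved more than the middle, and 4 of 13 heat stress libraries in Takara and 5 of 13 in Lexogen lay above every control library. Within animals it was higher after heat in 11 of 12 Takara pairs, with a median log2 change of 0.77, and in 9 of 12 Lexogen pairs, with a median of 0.32.

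IFNAR2, the chain that binds type I interferon most tightly, ranged in Takara from 35.4 to 86.9 CPM in control (median 58.2) and from 35.8 to 229 CPM after heat (median 84.9). Lexogen gave 49.0 to 191 CPM in control (median 89.3) and 77.5 to 427 CPM after heat (median 148). Animals differed widely in this chain. In Takara the within-animal log2 change ran from -0.56 (animal 41) to 2.45 (animal 36), with 9 of 12 pairs higher. In Lexogen it ran from -0.32 (animal 12) to 2.34 (animal 36), with 8 of 12 pairs higher.

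IFNGR1, the ligand-binding chain for interferon gamma, ranged in Takara from 45.1 to 201 CPM in control (median 122) and from 101 to 347 CPM after heat (median 187). In Lexogen it ranged from 66.1 to 275 CPM in control (median 106) and from 78.9 to 388 CPM after heat (median 172). In each kit 8 of 12 pairs were higher after heat, and the heat stress libraries above every control library numbered 6 of 13 in Takara and 3 of 13 in Lexogen. IFNGR1 and IFNAR2 were the chains for which Takara pairs reached the highest changes, 2.47 and 2.45 on the log2 scale, both in animal 36.

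IFNGR2, the chain that completes the interferon gamma receptor, ranged in Takara from 123 to 650 CPM in control, where the highest was 649.7 (median 448), and from 157 to 1013 CPM after heat (median 662). In Lexogen it ranged from 26.8 to 103 CPM in control (median 57.7) and from 38.6 to 181 CPM after heat (median 97.7). It was higher after heat in 10 of 12 Takara pairs and 11 of 12 Lexogen pairs. The kits disagreed most on animal 12, where Takara went from 649.7 to 157 CPM and Lexogen from 80.1 to 167 CPM.

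IL10RB, the chain shared between receptors, moved within a narrow band in Takara, from 148 to 255 CPM in control (median 214) and from 150.4 to 315.5 CPM after heat (median 239.9). Lexogen gave 44.5 to 112 CPM in control (median 101) and 63.8 to 195 CPM after heat (median 112). The pairs were higher after heat in 9 of 12 animals in each kit, with median log2 changes of 0.11 in Takara and 0.50 in Lexogen. IL10RA, the chain particular to interleukin-10, ranged in Takara from 45.9 to 201 CPM in control (median 122) and from 105 to 176 CPM after heat (median 149). In Lexogen it ranged from 19.3 to 96.4 CPM in control (median 54.3) and from 38.98 to 95.4 CPM after heat (median 64.5). For IL10RA no heat stress library lay above every control library in either kit, and 7 of 12 pairs were higher in each.

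**Figure D2:**
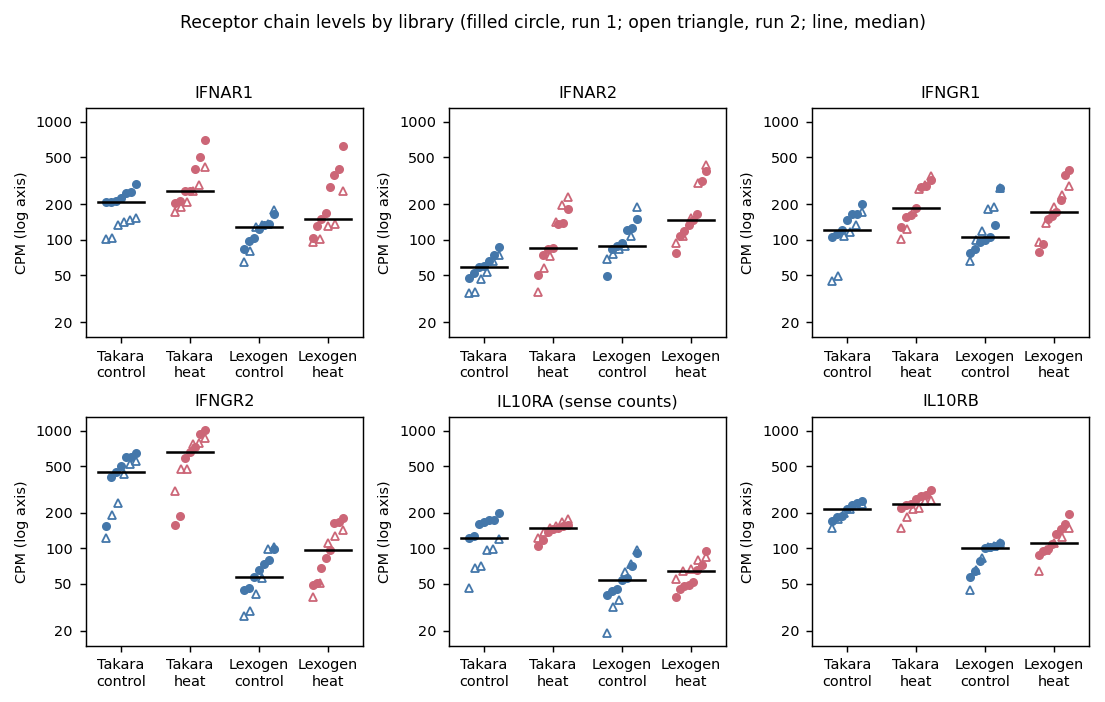
CPM of each receptor chain (log axis) in the 13 control and 13 heat stress libraries of each kit; 1 point is 1 library, filled circles are run 1, open triangles run 2, and lines are medians. Heat stress medians lie above control medians in all panels, the ranges overlap, and in Takara control the run 2 libraries of IFNAR1 (101 to 153 CPM) lie below those of run 1 (208 to 297 CPM).

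In order of median level, the 4 groups of libraries fell the same way for IFNAR1, IFNGR2, IL10RA and IL10RB, with Takara heat stress highest, then Takara control, Lexogen heat stress and Lexogen control. For IFNAR2 the order was Lexogen heat stress, Lexogen control, Takara heat stress and Takara control, and for IFNGR1 it was Takara heat stress, Lexogen heat stress, Takara control and Lexogen control. For each chain the ranges of neighbours in its order overlapped, so no neighbouring groups were set apart by level alone. For IFNGR2 the overlap of Takara control with Lexogen heat stress was narrow, from 123 to 181 CPM.

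The 6 chains did not respond alike across animals. In Takara, 4 of 12 animals had all 6 chains higher after heat, 4 had 5, and the others had 1 to 4. In Lexogen, 5 of 12 animals had all 6 higher and none had fewer than 2. Animal 41 had 1 chain higher in Takara and 2 in Lexogen, whereas animals 18, 32 and 36 had all 6 higher in both kits. For animals paired in both kits the kits read the same RNA, so those pairs are not independent.

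Ratios of partner chains within a library do not depend on library scaling. On sense counts, the ratio of IFNAR1 to IFNAR2 had a median of 3.01 in Takara control libraries and 3.04 after heat, and 1.26 and 1.03 in Lexogen. The ratio of IFNGR2 to IFNGR1 had medians of 3.86 and 3.08 in Takara and of 0.538 and 0.491 in Lexogen. The ratio of IL10RA to IL10RB had medians of 0.693 and 0.649 in Takara and of 0.618 and 0.514 in Lexogen. Within animals, the median log2 changes in this order were -0.09, -0.15 and 0.17 in Takara (5, 4 and 6 of 12 pairs higher). In Lexogen they were -0.24, 0.07 and -0.12 (3, 6 and 5 of 12 higher). Their sign differed from the shift of the group medians for the first and last ratio in Takara and the middle ratio in Lexogen. The shifts of the group medians were smaller than the spread between libraries, where for example the first ratio in Takara had an SD of 0.80 in control and 1.07 after heat.

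The animal as a block, for the 12 pairs of a kit, left the sign of each chain and changed the counts of calls. In Takara, 4 of 5 chains were called with the block (IL10RB was lost, at 0.44 ± 0.18), where 14.9% of all genes were called higher. In Lexogen 0 of 5 were called with it in place of 2, where 0.415% of all genes were. With total counts as library size 3 of 5 were called in Takara (IFNGR2 at 0.55 ± 0.28 and IL10RB at 0.20 ± 0.11 were lost), against 10.3% of all genes. With DESeq2 4 of 5 were called in Lexogen, against 5.51% of all genes. In run 1 alone 4 of 5 were called in Takara, where 1879 of the 12791 genes tested were called higher. In Lexogen run 1 it was 1 of 5, where 379 of the 11532 genes tested were. In run 2 alone 1 of 5 was called in Takara, against 4.8% of all genes, and 0 in Lexogen, where edgeR called 0% higher and 1275 genes had an unadjusted p under 0.05. Without the deep Lexogen library of animal 15, the call of IFNAR1 was lost in Lexogen, at 0.87 ± 0.27, where 3.59% of all genes were called higher. With animal 20 counted as a control, as the sampling text would have it, no chain was called in either kit. In that fit edgeR called 0.0178% of all genes higher in Lexogen and 0% in Takara, where 3804 genes had an unadjusted p under 0.05. Since the chains were chosen on this contrast, these counts are a description.

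Within runs, the Takara log2 fold changes were higher in run 2 than in run 1 for 5 chains. IFNAR2 was 1.18 ± 0.33 in run 1 and 1.59 ± 0.49 in run 2. IFNGR1 was 1.00 ± 0.30 and 1.38 ± 0.44, IFNAR1 was 1.05 ± 0.33 and 1.27 ± 0.30, and IFNGR2 was 0.81 ± 0.45 and 1.07 ± 0.42. IL10RB had the other order, 0.66 ± 0.19 and 0.33 ± 0.24. In Lexogen, run 1 was the higher for IFNAR1 (1.41 ± 0.35 against 0.22 ± 0.33), IFNGR1 (0.86 ± 0.35 against 0.25 ± 0.37), IFNGR2 (0.91 ± 0.32 against 0.63 ± 0.44) and IL10RB (0.70 ± 0.24 against 0.31 ± 0.29).

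In Takara, IL10RA was the chain that differed most between runs. Its log2 fold change there was 0.13 ± 0.17 in run 1 and 1.06 ± 0.21 in run 2, with 1 of 6 pairs higher after heat in run 1 and 6 of 6 in run 2. The run by time interaction was 0.89 ± 0.26 on sense counts, with an adjusted p of 0.0737 over all genes (edgeR), so it missed the threshold. That fit does not use the animal. With the animal as a block it was 0.95 ± 0.27 (edgeR on sense counts, adjusted p = 0.0993), where 1.1% of all genes were called. In Lexogen the interaction was 0.10 ± 0.45 (adjusted p = 0.985, edgeR), and 0.42 ± 0.49 with the block (adjusted p = 0.763, edgeR). For the other 5 chains the interaction was also not called in either kit, where 2.27% of the 13767 genes tested in Takara and 0.0222% of the 13484 in Lexogen were. IFNAR1 in Lexogen had the largest of these, at -1.21 ± 0.52 (adjusted p = 0.550 by edgeR).

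The runs were also compared in the control libraries alone. These libraries are part of the contrast that chose the chains, which did not split them by run. The sense counts of IL10RA were taken up after its values were seen. IFNAR1 in Takara control ranged from 208 to 297 CPM in the 7 libraries of run 1 (median 227) and from 101 to 153 CPM in the 6 of run 2 (median 137), with no overlap. The log2 difference of run 2 from run 1 was -0.75 ± 0.13 (edgeR, adjusted p = 0.00481). IL10RA in Takara control ranged from 122 to 201 CPM in run 1 (median 169) and from 45.9 to 121 CPM in run 2 (median 83.9), again with no overlap, and differed by -0.83 ± 0.18 (edgeR on sense counts, adjusted p = 0.0145). These were the chains called, 1 of 5 on unstranded counts, where 8.13% of all genes were called, and 2 of 6 on sense counts, where 8.3% were. Since these libraries entered the contrast that chose the chains, these calls are a description. The other chains differed by -0.37 ± 0.27 (IFNGR1), -0.34 ± 0.35 (IFNGR2), -0.16 ± 0.20 (IFNAR2) and 0.04 ± 0.14 (IL10RB), none called. Over all genes in Takara control, 658 were called higher and 397 lower in run 2 with TMM, and 408 higher and 851 lower with total counts, under which IL10RA stood at -0.95 and IFNAR1 at -0.87.

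In Lexogen control libraries the runs overlapped for every chain. IFNAR1 ranged from 83.4 to 164 CPM in run 1 and from 64.2 to 178 CPM in run 2, a difference of 0.10 ± 0.23 (adjusted p = 0.930 by edgeR). IL10RA ranged from 40.4 to 91.3 CPM in run 1 and from 19.3 to 96.4 CPM in run 2. The share of all genes called between runs in Lexogen was 0% with edgeR, where 1056 genes had an unadjusted p under 0.05 and DESeq2 called 63 higher and 48 lower in run 2. Whether the run difference itself differed between kits was not tested.

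The kits were compared within the 24 RNA samples that had a library of each, with the RNA sample as a block. Takara libraries read higher levels of IFNGR2, IL10RB and IL10RA and lower levels of IFNAR2 than Lexogen libraries of the same RNA. The Takara CPM was 6.75 times the Lexogen CPM for IFNGR2 at the median RNA sample, 2.28 times for IL10RA and 2.10 times for IL10RB, and 0.562 times for IFNAR2. IFNAR2 was lower in Takara in 24 of 24 RNA samples and IL10RB higher in 24 of 24. IFNGR2 was higher in 23 of 24, with the exception of animal 12 after heat, and IL10RA was higher in 23 of 24.

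By edgeR the log2 difference of Takara from Lexogen was 2.25 ± 0.15 for IFNGR2 (adjusted p = 2.84e-14), 0.82 ± 0.07 for IL10RB (adjusted p = 4.05e-11) and -1.22 ± 0.07 for IFNAR2 (adjusted p = 3.19e-15). IL10RA differed by 0.66 ± 0.10 on sense counts (edgeR, adjusted p = 9.16e-07). All 5 chains on unstranded counts were called, and so were 72.3% of all 12447 genes tested, so a call here sets the chains little apart. On sense counts 72.9% of all genes were called. The median gene was 0.41 higher in Takara with TMM scaling and 0.72 higher with total counts as library size. Relative to the median gene, IFNGR2 was higher by 1.84, IL10RA by 0.45 and IL10RB by 0.41, and IFNAR2 stood at -1.63.

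IFNAR1 and IFNGR1 were nearer to even between kits. IFNAR1 was 0.27 ± 0.10 higher in Takara (edgeR, adjusted p = 0.0132) on unstranded counts, but -0.01 ± 0.10 on sense counts (adjusted p = 0.959), and stood at -0.13 relative to the median gene. In the control RNA samples alone its difference was 0.19 (adjusted p = 0.294 by edgeR). IFNGR1 was lower in Takara by -0.39 ± 0.11 (edgeR, adjusted p = 0.00219), and by -0.08 with total counts as library size (adjusted p = 0.523). At the median RNA sample the Takara CPM was 1.58 times the Lexogen CPM for IFNAR1 and 0.907 times for IFNGR1.

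**Figure D3:**
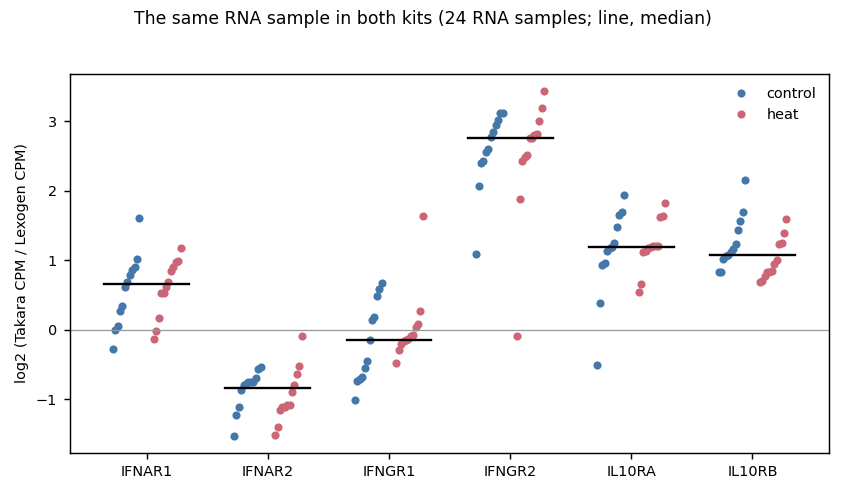
log2 ratio of Takara CPM to Lexogen CPM for each chain in the 24 RNA samples with both kits; 1 point is 1 RNA sample, blue for control and red for heat stress, and lines are medians over all 24. IFNGR2 lies highest (median 2.76), IFNAR2 lies below 0 in all 24, and IFNGR1 lies about 0 (median -0.14).

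No difference between kits in the size of the heat change was detected. The kit by time interaction was 0.25 ± 0.22 for IFNGR1, 0.07 ± 0.20 for IFNAR1, -0.01 ± 0.29 for IFNGR2, -0.05 ± 0.15 for IFNAR2 and -0.22 ± 0.15 for IL10RB, and on sense counts 0.22 ± 0.20 for IL10RA. None was called by edgeR. The share of all 13354 genes called for this interaction was 0% too, with 526 genes at an unadjusted p under 0.05 by edgeR and none called with DESeq2 size factors, so these standard errors are the limit of what could be seen.

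The marker lists were chosen with earlier results of these data known, so their calls are a description. Neutrophil markers moved with the heat contrast, in which 18.4% of all genes tested rose and 10.5% fell in Takara. In Lexogen 5.09% rose and 0.459% fell. Of 9 neutrophil markers counted, such as the chemokine receptor CXCR2, the alarmin S100A8 and the protease MMP9, 8 rose in Takara and 7 in Lexogen (edgeR, adjusted p under 0.05), and none was at 0. Their summed level in Takara ranged from 4176 to 19577 CPM in control (median 13222) and from 4577 to 76285 CPM after heat (median 41914). In Lexogen it ranged from 1248 to 7173 CPM in control (median 3802) and from 1874 to 31630.2 CPM after heat (median 10628). Of 10 T cell markers, 4 fell in Takara (CD3D, CD3E, CD3G and CD8B) and none was called in Lexogen. Their summed medians were 1451 CPM in control and 909.7 CPM after heat in Takara, and 345 and 266 CPM in Lexogen. Of 8 B cell markers 1 fell in Takara, with summed medians of 976 and 599 CPM there and 452 and 321 CPM in Lexogen. Of 7 monocyte markers 2 rose in Takara, with summed medians of 464 and 497 CPM there and 253 and 273 CPM in Lexogen. The ranges of control and heat stress sums overlapped for each of these lists in each kit. With so few markers the B cell and monocyte counts are little apart from the shares of all genes, and nothing is read from them. Of 7 NK and cytotoxic cell markers, all counted and of which 6 could be tested in Lexogen, 1 rose in each kit. In Takara that is no larger a part than of all genes. The marker called was NCR1, an activating receptor of NK cells. It rose by 1.20 ± 0.24 in Takara (edgeR, adjusted p = 0.000762) and by 1.55 ± 0.45 in Lexogen (edgeR, adjusted p = 0.0328). The summed medians of the NK and cytotoxic cell markers were 247 CPM in control and 180.1 CPM after heat in Takara, and 60.6 and 102 CPM in Lexogen. No eosinophil, platelet or erythroid marker was called in either kit, but not all could be tested. Those tested were 2 of 5 eosinophil markers in Takara and 1 in Lexogen, and 4 of 6 platelet and 2 of 6 erythroid markers in each kit.

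The neutrophil sum changed from animal to animal as some chains did. In Takara it was lower after heat in animals 3 and 41, higher by 0.25 to 0.36 on the log2 scale in animals 12, 14 and 19, and higher by 1.60 to 3.92 in the other 7. Over all 12 animals the Pearson r between the log2 change of the sum and that of the chain was 0.98 for IFNAR2, 0.89 for IFNGR1, 0.88 for IFNAR1, 0.81 for IL10RB, 0.39 for IFNGR2 and 0.22 for IL10RA, with Spearman's rho of 0.94, 0.86, 0.90, 0.76, 0.43 and 0.20. Among the 7 with the larger rises r was 0.94 for IFNAR2, 0.89 for IFNAR1, 0.72 for IL10RB, 0.66 for IFNGR2, 0.63 for IFNGR1 and 0.36 for IL10RA. Without the 2 animals farthest from the median change, r over the other 10 in Takara was between 0.27 (IL10RA) and 0.97 (IFNAR2). In Lexogen r over 12 animals was 0.86 for IFNAR2, 0.73 for IFNGR2, 0.69 for IL10RA, 0.59 for IFNGR1, 0.56 for IFNAR1 and 0.32 for IL10RB, with Spearman's rho of 0.84, 0.57, 0.59, 0.68, 0.55 and 0.34. Without the 2 animals farthest from the median change, r in Lexogen was 0.78 for IFNAR2 and 0.64 for IFNGR1, and 0.31, 0.41, 0.28 and 0.31 for IFNGR2, IL10RA, IFNAR1 and IL10RB. These are descriptions, since both axes use the heat contrast and share a library total. IFNAR2 led in both kits.

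**Figure D4:**
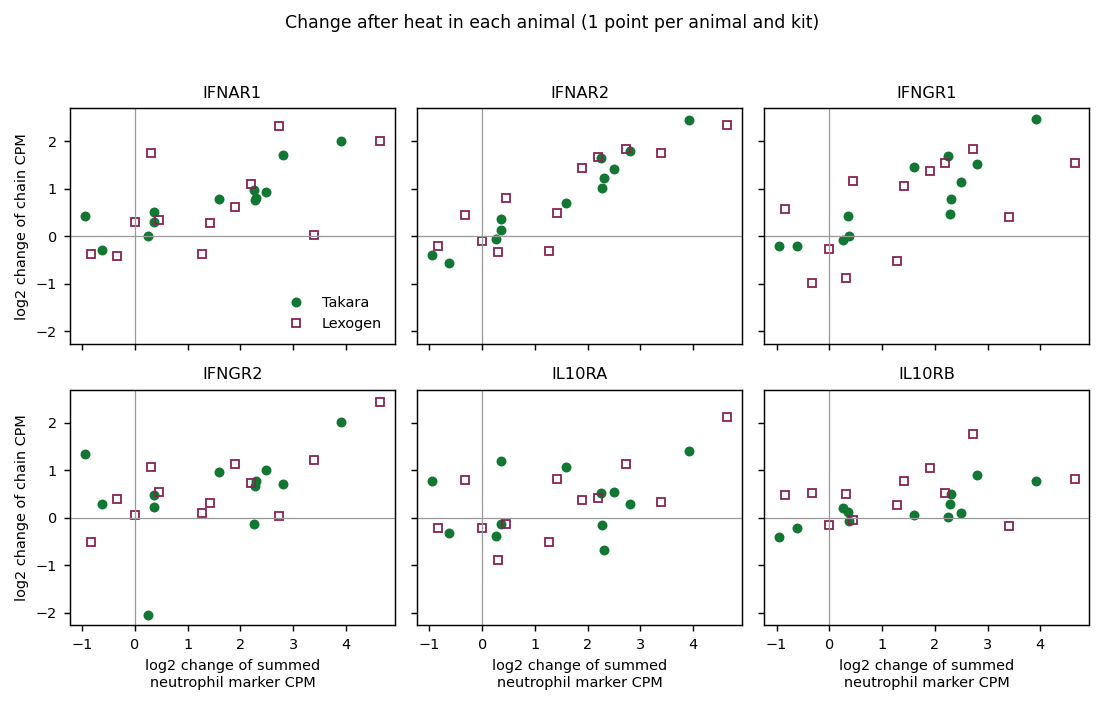
log2 change of each chain's CPM after heat (vertical axis) against the log2 change of the summed CPM of 9 neutrophil markers (horizontal axis); 1 point is 1 animal in 1 kit, 12 animals per kit, filled circles Takara and open squares Lexogen. IFNAR2 follows the sum most closely (r = 0.86 over 12 animals in Lexogen), IL10RA in Takara less so, and the lowest IFNGR2 point (-2.05) is animal 12 in Takara.

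The levels in the control libraries were described in the same way. These libraries are part of the contrast that chose the chains, so no test is given. Over 13 animals in Takara, the log2 CPM of IFNAR2 and the log2 neutrophil sum gave r = 0.898 (Pearson) and rho = 0.89 (Spearman). Without the 2 animals farthest from the median sum r was 0.768, and it was 0.764 within run 1 and 0.938 within run 2. IFNGR1 had r of 0.89 (rho = 0.857) and IL10RB of 0.842 (rho = 0.786), and r was 0.725 and 0.712 without those 2 animals. Within run 1 and run 2 their r was 0.747 and 0.928 (IFNGR1) and 0.844 and 0.87 (IL10RB). IFNAR1 (r = 0.649, rho = 0.599) and IL10RA (r = 0.631, rho = 0.505) had r of 0.245 and 0.17 without the 2 animals. Within run 1 and run 2 r was 0.623 and 0.835 for IFNAR1, and 0.901 and 0.467 for IL10RA. IFNGR2 had r of 0.429 (rho = 0.566), with -0.215 in run 1 and 0.679 in run 2.

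In Lexogen control libraries the chain that followed the neutrophil sum most closely was IFNGR2 (r = 0.831, rho = 0.824), with r of 0.743 without the 2 farthest animals, 0.73 in run 1 and 0.902 in run 2. IL10RA had r of 0.68 (rho = 0.648) and 0.383 without them, with 0.219 in run 1 and 0.895 in run 2. IFNAR2 had r of 0.542 and rho of 0.747. IFNAR1, IFNGR1 and IL10RB had r of 0.552, 0.325 and 0.43. The order of the chains by r differed between the kits, and the difference was not tested. The part of the neutrophil markers in the heat values was not tested.

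The related genes of the pathway were taken as lists by role. These lists were chosen with earlier results of these data known, so their calls are a description too. The genes named from them are mainly those called with the largest Takara change. The lists held 82 genes in all, of which 58 could be tested in Takara and 53 in Lexogen. Of these 19 rose and 1 fell after heat in Takara, and 8 rose and none fell in Lexogen (edgeR). Of all genes tested, 18.4% rose and 10.5% fell in Takara, and 5.09% rose and 0.459% fell in Lexogen. The median log2 fold change over the list was 0.11 in Takara and 0.17 in Lexogen, beside -0.05 and -0.08 over all genes tested. In Takara 2325 genes rose and 1321 fell with TMM scaling, and 1303 rose and 2185 fell with total counts as library size, which moved the median of all genes from -0.05 to -0.27. The pathway count was 19 risen under both, with 4 fallen under the second. Relative to the median gene, the chains were higher by 1.42 (IFNAR2), 1.22 (IFNGR1), 1.19 (IFNAR1), 0.98 (IFNGR2), 0.57 (IL10RB) and 0.55 (IL10RA) with TMM, and by 1.24, 1.05, 1.01, 0.82, 0.48 and 0.48 with total counts.

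Of 15 interferon and interleukin-10 family genes, 8 had no count in any of the 26 Takara libraries and 11 none in the 26 Lexogen libraries. Interferon gamma (IFNG) had 33 counts and IL10 had 40 counts over all Takara libraries and both had 0 in Lexogen, where 3 counts would be 0.01 CPM, a limit that covers counting error only. IFNE had 189 counts in Takara and 86 in Lexogen, and IL26 had 63 and 42. IL24, a cytokine of the interleukin-10 family, had the most, with 1156 counts in Takara (3.96 CPM over all libraries, and none at 0) and 513 in Lexogen. It was the ligand that could be tested in Takara, and it was not called (0.10 log2).

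All 3 kinases rose in Takara, where 18.4% of all genes did. JAK1, which serves all of these receptors, went from a median of 462 to 538 CPM (log2 fold change 0.55 ± 0.12, edgeR adjusted p = 0.00187). JAK2, the kinase bound to IFNGR2, went from 34.8 to 53.3 CPM (0.88 ± 0.22, edgeR adjusted p = 0.00425), and TYK2, which serves IFNAR1 and IL10RB, from 38.9 to 50.2 CPM (0.85 ± 0.20, edgeR adjusted p = 0.00324). In Lexogen none of the 3 was called, with values of 0.35 ± 0.15, 0.58 ± 0.27 and 0.50 ± 0.21.

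Of the 4 transducers, STAT3, which carries the interleukin-10 signal, rose in both kits. In Takara it ranged from 37.7 to 103 CPM in control (median 65.6) and from 60.6 to 395 CPM after heat (median 129), a log2 fold change of 1.91 ± 0.35 (edgeR, adjusted p = 5e-04). In Lexogen it rose by 1.499 ± 0.333 (edgeR, adjusted p = 0.0049), and with the animal as a block it stood at 1.16 (adjusted p = 0.0869), not called. STAT2 and its partner IRF9, which carry interferon signals, were not called in either kit, at 0.47 ± 0.19 and 0.42 ± 0.20 in Takara.

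Inhibitors of these pathways rose in 8 of 12 tested in Takara and 3 of 12 in Lexogen, and none fell. Over all genes, 18.4% rose in Takara and 5.09% in Lexogen. PTPN6, a phosphatase that dampens cytokine signals, went from a median of 370.4 to 697 CPM in Takara (1.16 ± 0.20, edgeR adjusted p = 0.000412) and from 23.9 to 71.7 CPM in Lexogen (1.54 ± 0.40, edgeR adjusted p = 0.0163). SOCS3, a feedback inhibitor induced through STAT3, rose by 1.04 ± 0.30 in Takara (edgeR adjusted p = 0.0119) and 1.02 ± 0.26 in Lexogen (edgeR adjusted p = 0.0128). With the animal as a block neither was called in Lexogen, at 1.12 (PTPN6) and 0.92 (SOCS3). USP18, the inhibitor that binds IFNAR2, was too low to test.

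Targets of interferon did not rise as lists. Of 18 type I interferon targets tested in Takara, which include the antiviral genes MX1 and ISG15, none was called, with 6 values above 0 and 12 below (median -0.18), and none of 17 was called in Lexogen (median -0.02). ISG15 had medians of 224 CPM in Takara control libraries and 120.4 CPM after heat, within ranges of 64.4 to 728 CPM and 32.7 to 711 CPM. Of 11 interferon gamma targets in Takara, WARS1, a tRNA synthetase, rose by 1.10 ± 0.32 (edgeR adjusted p = 0.0113). PSMB9, an immunoproteasome subunit, fell by 0.45 on the log2 scale (SE 0.14, edgeR adjusted p = 0.0203). Over all genes 18.4% rose and 10.5% fell in Takara, so these calls do not set the list apart. The list's median was -0.45 in Takara, and none of 10 was called in Lexogen (median -0.10).

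Genes that interleukin-10 is known to induce rose in 6 of 8 tested in Takara and 5 of 7 in Lexogen. The list medians were 1.15 and 1.02, beside -0.05 and -0.08 for all genes, of which 18.4% rose in Takara and 5.09% in Lexogen. NFIL3, a transcription factor, went from a median of 24.04 to 97.8 CPM in Takara (2.81 ± 0.48, edgeR adjusted p = 0.000371) and from 34.5 to 86.0 CPM in Lexogen (2.12 ± 0.41, edgeR adjusted p = 0.0016). Blocked by animal it stood at 1.70 in Lexogen (edgeR adjusted p = 0.0593), not called. ZFP36, which speeds the decay of cytokine mRNAs, rose by 1.64 ± 0.38 in Takara (edgeR adjusted p = 0.00226) and was not tested in Lexogen. Several members of this list, SOCS3 among them, answer to other STAT3 signals as well. Among the related receptors, IL22RA2, the neighbour of IFNGR1, rose in Takara from a median of 3.12 to 6.04 CPM (1.29 ± 0.36, edgeR adjusted p = 0.00825) and stood at 0.76 ± 0.43 in Lexogen, not called.

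**Figure D5:**
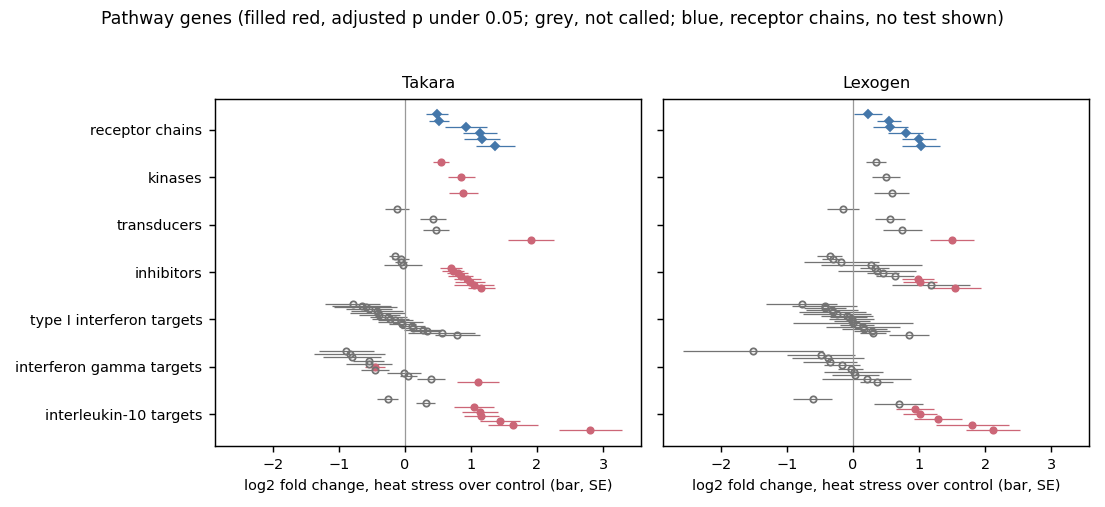
log2 fold change of heat stress over control (horizontal axis, bars are SE) for the receptor chains and the pathway lists in each kit; 1 point is 1 gene, filled red past an adjusted p of 0.05 (edgeR), grey not called, blue the chains, shown with no test. All chains, all 3 kinases and most inhibitors and interleukin-10 targets lie above 0 in Takara, while the 18 type I interferon targets spread about 0 with a median of -0.18.

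The genes whose levels followed each chain most closely were sought in the 26 Takara libraries after the mean of each time had been subtracted, among 10926 named genes. IFNAR2 was most like CYRIB (r = 0.975) and RASSF2 (r = 0.972), which kept r of 0.769 and 0.89 in Lexogen. IFNGR1 was most like MYD88, the adaptor of Toll-like receptors (r = 0.971), and PAPSS1 (r = 0.964), IFNGR2 was most like CEBPD (r = 0.958) and COP1 (r = 0.955), and IFNAR1 was most like ARHGAP25 (r = 0.94) and PNRC1 (r = 0.935). IL10RB was most like TUT7 and GRB2 (both r = 0.94), and IL10RA was most like RNASET2 (r = 0.916) and PILRA (r = 0.877). For PILRA Spearman's rho was 0.703, and r was 0.79 without the 2 libraries farthest from the median of IL10RA. No chain had another chain among its 2 nearest genes. In Lexogen the same pairs had r between 0.323 and 0.89, and GRB2 (0.323), PAPSS1 (0.327) and RNASET2 (0.338) were the lowest. As the highest of 10926, the Takara values carry no p. The difference between runs was not removed, and most animals gave a library at each time, so the libraries are not independent.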

How the data were processed

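Forward reads of 54 libraries were, per the submitters' processing notes and the study's methods, checked with FastQC 0.11.9 and MultiQC 1.14, trimmed with Trimmomatic 0.39 and mapped to ARS-UCD2.0 with STAR 2.7.10b. The deposited values are raw counts per gene made by the authors, with an unstranded, a sense and an opposite-strand column. The column the authors analysed is not given in the sources used here. CPM were computed here from these counts over the total on genes. Rows that name no gene (unmapped, multimapped, featureless and ambiguous reads) held 32.8 to 57.9% of reads in Takara and 32.2 to 46.7% in Lexogen and were left out. Without molecular identifiers, a count need not be a separate molecule, and limits on a count of 0 cover counting error only.

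Groups came from the labels, without animal 20. Tests used edgeR 4.0.16 (filterByExpr, TMM, quasi-likelihood, Benjamini-Hochberg over all genes tested, threshold 0.05) in R 4.3.3, with DESeq2 1.42.0 as an alternative. The edgeR fits without the animal as a block were run on simulated counts of independent libraries. DESeq2 and the fits with the animal as a block were not. Kits were compared with the RNA sample as a block. The SE of a log2 value is its size over the root of F.

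The labels pair the libraries of an animal across times. Centred gene levels correlated above 0.1 in 11 of 12 Takara pairs (median r 0.232). In Lexogen they did in only 2 of 12 pairs (median r 0.021), so there the pairing rests on the labels. The chains and lists were chosen with earlier results of these data known, and IL10RA's sense counts and the neutrophil relations after its values were seen. Named genes were all chains, up to 2 called per direction and list with the largest Takara change, the 2 nearest genes of each chain, and further genes (JAK1, IL24, ISG15, MX1, USP18, STAT2, IRF9 and markers) chosen after their values were seen. The values of 1 transducer are not reported here. Of the gene symbols, 30271 matched the RefSeq gene table of ARS-UCD2.0, the source of positions.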

Additional observations from a re-analysis of the deposited data

Results flagged for a closer look

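Animal 20, which entered no comparison because the sources disagree on its time, had 9 of 12 values (6 chains in each kit) above every control library of the kit. In Takara these were 586 CPM for IFNAR1, 149 CPM for IFNAR2, 293 CPM for IFNGR1, 1238 CPM for IFNGR2 and 335 CPM for IL10RB. In Lexogen they were 436 CPM for IFNAR1, 255 CPM for IFNAR2, 222 CPM for IFNGR2 and 168 CPM for IL10RB. All 12 values lay above the median of the heat stress libraries and 4 above every one of them, and no group was drawn from this.

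Within the control libraries of each run and kit, 24 groups of 6 or 7 were searched for a library far from the others, which chance gives in about 1 group in 20. IFNAR2 in Lexogen run 2 had animal 14 at 191 CPM, and IFNGR1 in Lexogen run 1 had animal 12 at 275 CPM.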

How the results depend on the processing

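The log2 fold changes of the chains moved by less than the spread between animals under each alternative run, with the exception of IL10RA in Lexogen on unstranded counts, which came to -2.83 with no filter and -2.95 with DESeq2, from 48 counts in 26 libraries. The number of pathway genes called depended on animal 20, the runs, the replicate block and scaling. With animal 20 as a control, 0 rose and 0 fell in Takara and 0 rose in Lexogen, and with it as heat stress 2 fell in Takara. In run 2 alone 5 rose in Takara and 0 in Lexogen, in run 1 alone 4 rose in Lexogen, and 0 fell in Takara in either run. With the animal as a replicate block 3 fell in Takara (against 1) and 0 rose in Lexogen (against 8), and the paired fit changed no call of a chain in the run by time interaction, including IL10RA on sense counts (0.95 in Takara and 0.42 in Lexogen, added after seeing the data). Total counts as library size gave 4 fallen in Takara, all expressed genes gave 4 fallen in Lexogen, and 5 rose in Lexogen without the library of animal 15. IFNAR1 between kits turned to -0.006 on sense counts, and IL10RA between runs in Takara control turned to 0.51 on unstranded counts with no filter and 0.56 with DESeq2. Of the alternatives, 188 of the values that answer a comparison stayed near the main value, while 10 weakened, 4 grew stronger and 2 moved beyond the spread. Near means a log2 fold change of a chain within the spread between animals, or a count of calls of similar size. It does not mean that a chain kept its call, and calls of chains were lost as given above. Over all genes, calls in Lexogen (565 higher and 51 lower after heat) became 1701 and 1572 with all expressed genes, 46 and 17 with the block, 2 and 0 with animal 20 as a control, 816 and 190 with DESeq2 and 0 and 0 in run 2 (1275 at an unadjusted p under 0.05). In Takara (2325 and 1321) they became 3604 and 1303 with all expressed genes, 1879 and 751 in run 1 and 608 and 323 in run 2. The run by time calls in Takara (70 and 242) became 156 and 438 with DESeq2 and 37 and 140 with the block. The causes of these shifts were not tested. The limits are 12 pairs per kit, the confounding of heat with time of day, 13 control libraries split over 2 runs, and counts of overlapping genes that only the stranded columns separate.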
